A study of Mus musculus with 4 samples.

Results

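The embryonic and adult globin genes were examined in RNA-seq data of PSC-derived SG placodes and of embryonic submandibular glands (SMGs). The 7 members were taken by symbol from the 22036 Ensembl genes among 24771 listed features. They are the embryonic genes Hbb-y, Hbb-bh1 and Hba-x and the adult genes Hbb-bs, Hbb-bt, Hba-a1 and Hba-a2. All 7 were found, each as 1 gene. The members were chosen from their difference between the placodes and the SMGs in these samples, so that difference is described below and was not tested.

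The data comprised 2 samples of SG placodes and 2 samples of E12.5 SMGs, labelled as untreated. To make the placodes, mouse embryonic stem cells of the line 129w2 were plated (3000 per well, 2% Matrigel) and exposed to 2 ng/ml BMP4 on day 3, to 1 μM RA plus 25 ng/ml bFGF on day 4 and to 200 ng/ml FGF10 starting on day 6, and total RNA was taken on day 10. The SMGs came from mouse embryos at E12.5, and neither their strain nor their dissection is given in the sources used here, so how much blood or blood vessel they held is not known. The labels give the culture protocol for the SMG samples as well, and nothing says whether the samples of a group came from separate cultures or litters, so the spread between them may be technical. Expression was given as FPKM, the mapped fragments of a gene scaled to its transcript length and to the sample's mapped fragments. FPKM summed to between 361963 and 384773 per sample, and each sample had 12636 to 12807 features at 1 FPKM or more. Mitochondrial genes held 5.88 to 10.7% of the sum. Read totals were not used here, so the depth is treated as unknown and an FPKM of 0 is called listed at 0. No date or batch is given for the samples.

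Hemoglobin carries oxygen in red blood cells as a complex of α-like and β-like globin chains, each with a heme group. The first, primitive red cells of the mouse embryo arise in the yolk sac and make embryonic chains, ζ-globin from Hba-x and the β-like chains from Hbb-bh1 and Hbb-y, together with adult α-globin. Definitive red cells, which in the midgestation embryo come from the fetal liver, make adult α-globin and adult β-globin. Primitive cells circulate and mature in the blood stream, where their output shifts from Hbb-bh1 towards Hbb-y. Neither salivary epithelium nor its mesenchyme is known as a site of red cell formation.

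The members lie in 2 clusters of GRCm38, each in the order embryonic to adult along the direction of transcription. The β-globin cluster is on the minus strand of chromosome 7 over 40.7 kb, with Hbb-y at chr7:103851749-103853216, Hbb-bh1 at chr7:103841637-103843164, Hbb-bs at chr7:103826534-103828096 and Hbb-bt at chr7:103812524-103813996. Their Ensembl genes are ENSMUSG00000052187, ENSMUSG00000052217, ENSMUSG00000052305 and ENSMUSG00000073940. The α-globin cluster is on the plus strand of chromosome 11 over 20.9 kb, with Hba-x at chr11:32276400-32278116, Hba-a1 at chr11:32283511-32284465 and Hba-a2 at chr11:32296489-32297298. These are ENSMUSG00000055609, ENSMUSG00000069919 and ENSMUSG00000069917.

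How far the genes can be told apart by short reads depends on their sequence, so the first 60 coding bases of the embryonic genes and of 1 adult gene per family are shown. They were read from GENCODE M21 transcripts, 5′ to 3′ from the start codon, and capitals mark bases that differ from the adult gene of the same family.
Hbb-bs: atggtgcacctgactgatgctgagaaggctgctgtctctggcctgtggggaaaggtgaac
Hbb-y: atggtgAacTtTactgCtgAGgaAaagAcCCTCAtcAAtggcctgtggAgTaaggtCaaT
Hbb-bh1: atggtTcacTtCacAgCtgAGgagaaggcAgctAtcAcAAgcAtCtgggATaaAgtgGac
Hba-a1: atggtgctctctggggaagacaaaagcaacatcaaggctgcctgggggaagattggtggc
Hba-x: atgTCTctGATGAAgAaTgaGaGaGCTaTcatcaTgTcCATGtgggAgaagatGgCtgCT
In these windows Hbb-y differed from Hbb-bs at 19 bases, Hbb-bh1 from Hbb-bs at 18 and Hba-x from Hba-a1 at 28. Over the whole coding sequence, identity was 74.3% between Hbb-y and Hbb-bs, 76.4% between Hbb-y and Hbb-bh1 and 63.0% between Hba-x and Hba-a1. No stretch of 50 bases of the Hbb-y, Hbb-bh1 or Hba-x transcript occurred in a transcript of another gene.

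The adult genes of each family were nearly identical in their coding sequences. Hbb-bs and Hbb-bt matched at 443 of 444 coding bases and Hba-a1 and Hba-a2 at 428 of 429. The only differing base of each pair is shown in capitals with 20 coding bases on either side.
Hbb-bs: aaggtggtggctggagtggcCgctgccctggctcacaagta
Hbb-bt: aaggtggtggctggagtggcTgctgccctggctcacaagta
Hba-a1: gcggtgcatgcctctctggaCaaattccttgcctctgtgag
Hba-a2: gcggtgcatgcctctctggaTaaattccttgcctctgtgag
Counted from the A of the start codon, these are C417T from Hbb-bs to Hbb-bt and C381T from Hba-a1 to Hba-a2. Of all 50-base stretches of its transcript, Hbb-bs shared 65.8% with Hbb-bt, Hbb-bt shared 58.3% with Hbb-bs, Hba-a1 shared 67.5% with Hba-a2 and Hba-a2 shared 86.9% with Hba-a1. How reads that match both copies were counted is not given in the sources used here. The values of single adult genes are therefore uncertain, and sums over each adult pair are given beside them.

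**Figure D1:**
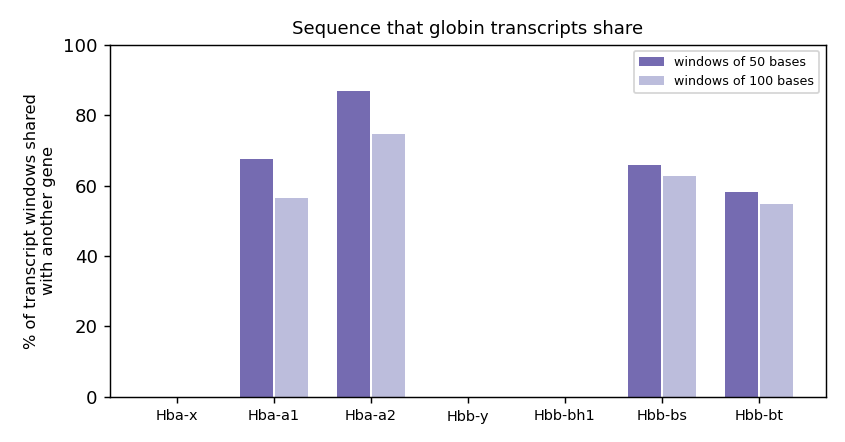
Share of all 50-base (dark) and 100-base (light) windows of each globin transcript that also occur in a transcript of another gene, in percent. The embryonic genes Hba-x, Hbb-y and Hbb-bh1 are at 0 and the adult genes lie between 54.8 and 86.9%.

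In the E12.5 SMGs, globin RNA of both kinds was abundant, and in the SG placodes 13 of the 14 values were listed at 0. The β-like RNA of the SMGs was mostly embryonic, whereas the α-like RNA was mostly adult. Hbb-y, the embryonic β-like gene of maturing primitive red cells, was the most abundant member, followed by the adult α-globin gene Hba-a1. The other embryonic β-like gene, Hbb-bh1, was the least abundant.

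Both placode samples listed Hbb-y at 0, and it measured 1336 and 1266 FPKM in SMG samples 1 and 2, a mean of 1301 ± 49.5 (SD, n = 2). It was the 17th and 18th most abundant of all features in those samples. Hbb-bh1, which precedes Hbb-y in the sequence of switching, was listed at 0 in both samples of the placodes, against 29.3 and 25.3 FPKM in SMG samples 1 and 2. Its mean of 27.3 ± 2.81 (SD, n = 2) was far below that of Hbb-y, and the ratio of Hbb-y to Hbb-bh1 was 45.6 in sample 1 and 50.02 in sample 2. Hba-x, the ζ-globin gene, was listed at 0 in both samples of the placodes, against 100.4 and 85.7 FPKM in SMG samples 1 and 2 (mean 93.1 ± 10.4, SD, n = 2).

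Of the adult β-globin genes, Hbb-bs was listed at 0 in both samples of the placodes, against 288 and 319 FPKM in SMG samples 1 and 2 (mean 304 ± 21.8, SD, n = 2). Hbb-bt was listed at 0 in the placodes and stood at 201 and 214 in the SMG samples (mean 207 ± 9.13, SD, n = 2). The summed FPKM of this pair was 489 and 533, below that of Hbb-y alone in either sample.

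Hba-a1 was the only member with a value above 0 in a placode sample, with an FPKM of 0 and 0.0586 in placode samples 1 and 2. In the SMG samples it stood at 819 and 794 (mean 806 ± 17.2, SD, n = 2). Hba-a2 was listed at 0 in both samples of the placodes, against 279.8 and 345 FPKM in SMG samples 1 and 2 (mean 312 ± 46.0, SD, n = 2). The summed FPKM of the adult α-globin pair was 1098 and 1139. Each member was higher in both SMG samples than in either placode sample, with no overlap, which is the pattern the members were chosen for. Of all features with a mean FPKM of at least 1, 46.8% were lower and 41.6% higher in the placodes without overlap.

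**Figure D2:**
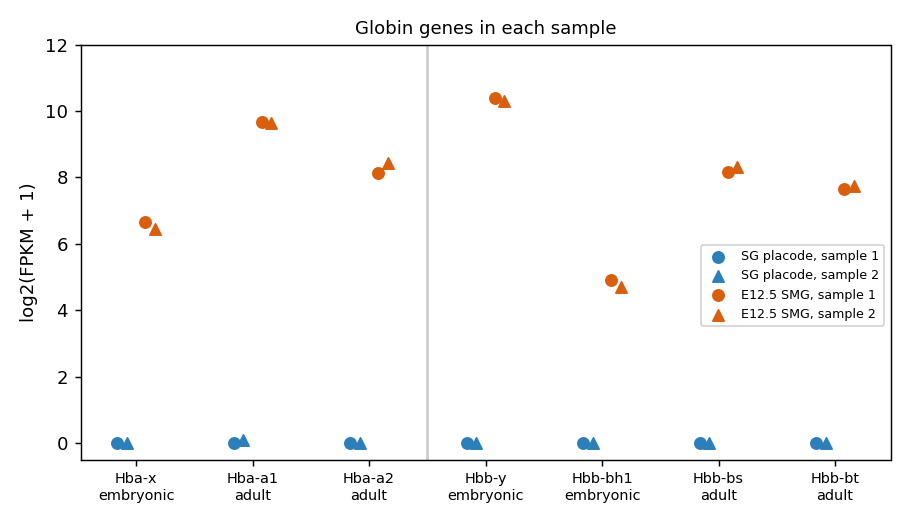
log2(FPKM + 1) of each globin gene (horizontal axis, with its class) in each sample, placodes in blue and E12.5 SMGs in orange, with sample 1 as circles and sample 2 as triangles. All placode points lie at or next to 0, and among the SMG points Hbb-y and Hba-a1 are highest and Hbb-bh1 lowest.

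By FPKM, which is a level per length, the order in the SMGs ran from Hbb-y down to Hba-a1, then Hba-a2 and Hbb-bs, then Hbb-bt, Hba-x and, lowest, Hbb-bh1. Hba-a2 and Hbb-bs were the only neighbours in this order whose values overlapped between the samples, with Hbb-bs above Hba-a2 in sample 1 and below it in sample 2. The other neighbours kept their order in both samples, and with 2 samples this was not tested.

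The position of a gene in its cluster did not order its level in the same way in both families. Along the β-globin cluster, the starts of Hbb-bh1, Hbb-bs and Hbb-bt lie 10.1, 25.1 and 39.2 kb downstream of the start of Hbb-y, and the level was highest at Hbb-y, lowest at Hbb-bh1 and intermediate at the adult pair. Along the α-globin cluster, Hba-a1 and Hba-a2 start 7.11 and 20.1 kb downstream of Hba-x, and the level was lowest at Hba-x and highest at Hba-a1.

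**Figure D3:**
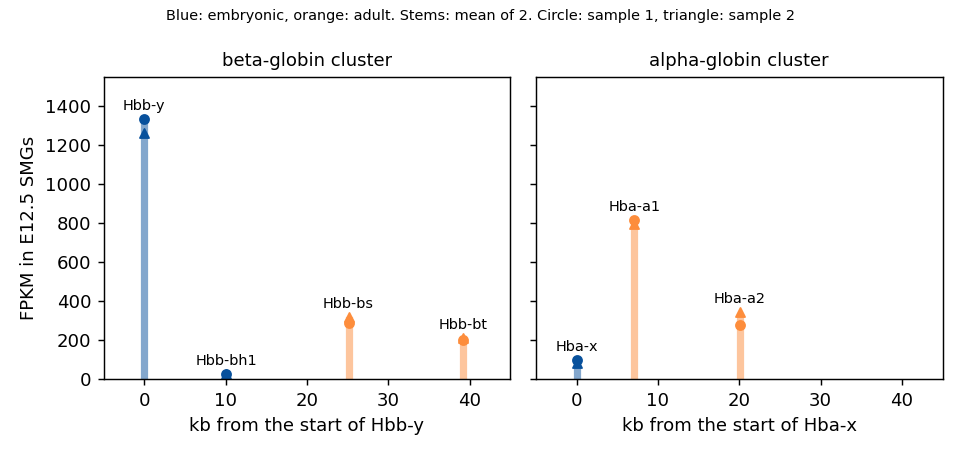
FPKM in the E12.5 SMGs (vertical axis, linear) against the distance of each gene's start from the start of the first gene of its cluster, in kb. Stems show the mean of 2 samples, circles sample 1 and triangles sample 2, with embryonic genes in blue and adult genes in orange. Hbb-y dominates the β-globin cluster and Hba-a1 the α-globin cluster.

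The composition of globin RNA was close in the 2 SMG samples. Embryonic genes held 73.6 and 70.8% of the summed β-like FPKM in samples 1 and 2, a mean of 72.2% ± 2.01 (SD, n = 2). Hbb-y alone held 72.1 and 69.4%, and Hbb-bh1 held 1.58 and 1.39%. With Hbb-bs and Hbb-bt taken as 1 gene at the mean of both, the embryonic share was 83.9%. Of the summed α-like FPKM, the embryonic gene Hba-x held 8.38 and 6.997%, a mean of 7.69% ± 0.975 (SD, n = 2). This share, too, depended on how the near-identical adult genes were treated, and with Hba-a1 and Hba-a2 taken as 1 gene at the mean of both, it was 14.3%. Over all 7 members, embryonic genes held 48.0 and 45.2%.

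**Figure D4:**
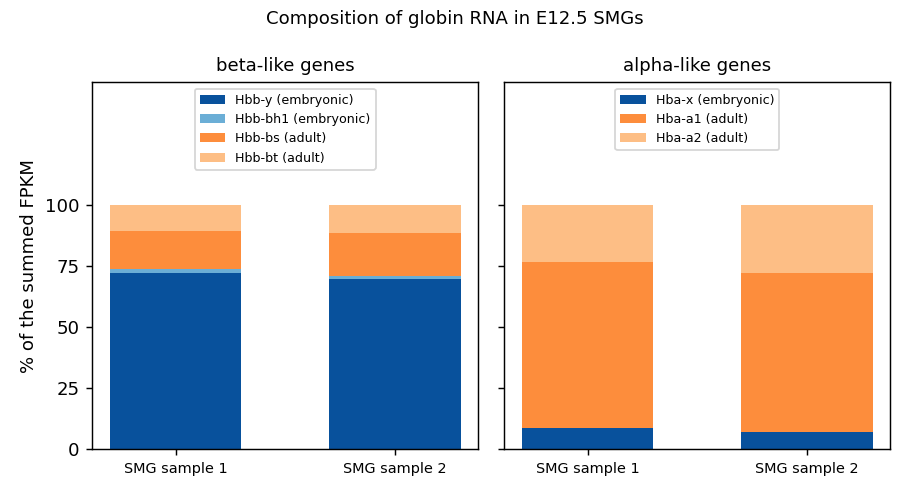
Share of each gene in the summed FPKM of the β-like genes (left) and of the α-like genes (right) in each E12.5 SMG sample, in percent, with embryonic genes in blue and adult genes in orange. Embryonic genes take 73.6 and 70.8% of the β-like bars and 8.38 and 6.997% of the α-like bars.

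The summed β-like FPKM was 1854 and 1823 in the SMG samples, and the summed α-like FPKM was 1199 and 1225. Their ratio, α-like to β-like, was 0.647 and 0.672, a mean of 0.659 ± 0.0177 (SD, n = 2). With the adult α-globin genes taken as 1 gene it was 0.355, and with both adult pairs taken as 1 gene each it was 0.412. All members together made up 0.793 and 0.815% of the summed FPKM of SMG samples 1 and 2. In bulk tissue, fewer red cells and less globin RNA per red cell cannot be told apart.

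Between the SMG samples the members did not all move in 1 direction. The embryonic genes were lower in SMG sample 2 than in sample 1, with differences of -5.24% for Hbb-y, -13.6% for Hbb-bh1 and -14.6% for Hba-x. Of the adult genes, Hbb-bs was 10.7%, Hbb-bt 6.44% and Hba-a2 23.3% higher in sample 2, and Hba-a1 differed by -2.97%. On the log2 scale, the median absolute difference between the SMG samples over the 3968 features with a mean SMG FPKM of at least 20 was 0.06, and 90% of them differed by at most 0.19. Hba-a2 (0.30), Hba-x (-0.23) and Hbb-bh1 (-0.21) lay outside that range, and the other members lay within it. The sum of all members hardly moved, from 3053 to 3048. With 1 sample on either side this difference was not tested.

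The sequences just upstream of the RefSeq starts of the globin genes are shown as a description. Their part in the levels of the members was not tested. RefSeq promoter entries of GRCm38.p6 were found for 6 members; Hbb-bh1 was not among them. The 150 bases before the RefSeq start are given 5′ to 3′ on the coding strand. Capitals mark CACCC and CCAAT on either strand and ATAA in the last 50 bases. These motifs were chosen after the sequences were seen; CACCC is the core of the box bound by Klf1, an erythroid activator, CCAAT is a common promoter box, and ATAA is part of the TATA box. The windows are chr7:103853208-103853357 for Hbb-y, chr7:103827929-103828078 for Hbb-bs, chr7:103813924-103814073 for Hbb-bt, chr11:32276450-32276599 for Hba-x and chr11:32296342-32296491 for Hba-a2, and that of Hba-a1 shares 147 bases in a row with the last.
Hbb-y: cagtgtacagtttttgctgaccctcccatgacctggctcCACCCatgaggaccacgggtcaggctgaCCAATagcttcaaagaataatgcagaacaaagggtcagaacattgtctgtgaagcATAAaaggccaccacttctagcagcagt
Hbb-bs: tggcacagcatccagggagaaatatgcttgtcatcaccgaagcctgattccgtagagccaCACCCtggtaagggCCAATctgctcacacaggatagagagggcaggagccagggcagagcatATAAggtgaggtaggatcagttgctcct
Hbb-bt: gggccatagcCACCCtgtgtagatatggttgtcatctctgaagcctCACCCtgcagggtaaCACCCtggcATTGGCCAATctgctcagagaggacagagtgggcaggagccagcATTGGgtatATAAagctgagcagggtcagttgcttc
Hba-x: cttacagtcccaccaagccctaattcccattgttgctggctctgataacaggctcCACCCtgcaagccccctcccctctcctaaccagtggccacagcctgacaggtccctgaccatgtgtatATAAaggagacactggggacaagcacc
Hba-a2: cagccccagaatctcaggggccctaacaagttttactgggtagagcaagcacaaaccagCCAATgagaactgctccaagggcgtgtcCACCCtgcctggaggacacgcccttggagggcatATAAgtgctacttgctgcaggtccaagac
CACCC occurred in all 6 windows, against 37.4% of 32843 RefSeq windows of the same length. The match lay 111 bases before the start in Hbb-y, 90 in Hbb-bs, 95 in Hba-x, 60 in Hba-a1 and 63 in Hba-a2, and Hbb-bt had matches at 140, 104 and 89 bases. CCAAT on either strand occurred in the same members except Hba-x, against 24.5% of all windows. ATAA in the last 50 bases of the coding strand occurred in all 6, between 26 and 29 bases before the start, against 13.1% of all windows.

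Other letters, also not set in advance, were less evenly spread over the members, and the shares of all windows beside them are no test. TGACC, searched on both strands, occurred at 5 places in Hbb-y, at 1 in Hba-x and at 1 in Hbb-bt, and in 23.1% of all windows. The longer TGACCA was found in Hbb-y and Hba-x and in 6.99% of all windows. A GATA motif (GATA with A or T before it and A or G after it, either strand) was found in Hba-x alone, 108 bases before the start, and in 16.0% of all windows. The windows of Hbb-bs and Hbb-bt were 70.9% identical, with 14 bases as the longest identical run. The GENCODE genes of all 6 members start upstream of the RefSeq start, so each window holds bases inside the annotated gene. The windows of Hbb-bs, Hba-x and Hba-a1 lie wholly within it. A match describes letters only, and no binding was measured.

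The genes around the clusters did not share the pattern of the members as a group. Within 200 kb of the β-globin cluster the table held 27 other genes, of which 26 are olfactory receptor genes, with 24 of these listed at 0 in all 4 samples and the highest value at 0.111 FPKM. The remaining one, Hbb-bh2, a β-like gene between Hbb-bh1 and Hbb-bs, was also listed at 0 in all 4. Around the α-globin cluster, Nprl3, whose introns hold the known upstream enhancers of the α-globin genes, measured 6.98 and 7.11 FPKM in the placodes and 6.56 and 8.07 in the SMGs. Nprl3 did not pass the test (log2 difference -0.04, limma adjusted p = 0.74), and its sign changed with the scaling.

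The limma test compared log2(FPKM + 1) of placodes and SMGs over the 13193 features with a mean FPKM of at least 1, with Benjamini-Hochberg adjustment over all of them. Differences are given as placodes minus SMGs, so a negative value means lower in the placodes. Of these features, 40.4% were called lower and 35.7% higher in the placodes, and the median difference was -0.05. The counts of list genes given below are to be read against these shares. Of the other genes near the α-globin cluster, Rhbdf1 was lower by this test (-1.44, limma adjusted p = 1.49e-05), as was Sh3pxd2b (-0.55, limma adjusted p = 0.000332). Mpg was called (-0.23, limma adjusted p = 0.0185) but lost the call under TPM scaling and with any 1 sample left out. Snrnp25 (0.11, limma adjusted p = 0.352) and Ubtd2 (0.06, limma adjusted p = 0.415) were not called, although Snrnp25 was called higher without SMG sample 2 (0.25), and Il9r was listed at 0 in all 4 samples.

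Other genes of the globin family were low or followed another pattern. The θ-like genes of the α-globin cluster were listed at 0 in the placodes and stayed under 1 FPKM in the SMG samples, Hbq1b at 0.523 and 0.327 and Hbq1a at 0.124 and 0.215. Mb, which encodes the myoglobin of muscle, measured 0.0385 and 0.228 FPKM in the placodes and 0.619 and 0.267 in the SMGs. Ngb, the neuroglobin gene, measured 0.178 and 0.114 FPKM in the placodes and 0.0389 and 0.0885 in the SMGs, and Adgb, the androglobin gene, was listed at 0 in all 4. Cygb, the cytoglobin gene, which is expressed in fibroblast-like cells, was the only other globin gene with enough signal to be tested. It measured 3.55 and 3.57 FPKM in the placodes and 10.8 and 12.3 in the SMGs, a log2 difference of -1.46 (standard error 0.09, limma adjusted p = 2.1e-05). Hbb-bh0, Hbb-bh3, Hbb-b1 and Hbb-b2 were not analysed here.

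Most genes of heme synthesis were lower in the placodes. Of 8 such genes, all tested, 7 were lower and 0 higher, against 40.4 and 35.7% of all tested features, with a median log2 difference of -0.73 against -0.05. With no minimum FPKM, and likewise at a mean FPKM of at least 5, 6 were called lower. Alas2, the red cell form of the first enzyme of the pathway, measured 0 and 0.124 FPKM in the placodes and 8.54 and 7.49 in the SMGs (-3.09, standard error 0.12, limma adjusted p = 3.13e-06). The size of this difference follows the constant added to FPKM, and was -5.76 with 0.1 and -7.77 with 0.01. Uros, at 7.25 and 8.65 against 8.85 and 8.82, was the only one not called. The heme genes other than Alas2 are used by most cell types and had an FPKM of at least 4 in every sample.

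Of 8 genes of iron and heme handling, 4 were lower, 2 were higher and 2 were not called, with a median of -0.22. Tfrc, the transferrin receptor, which dividing cells as well as red cell precursors use to take up iron, had the largest log2(FPKM + 1) difference, with 175 and 167 FPKM in the placodes and 21.5 and 19.1 in the SMGs (3.02, limma adjusted p = 4.36e-07). Steap3, a ferrireductase gene of red cell precursors, went the other way, with 0.163 and 0.0567 FPKM in the placodes and 2.72 and 1.96 in the SMGs (-1.58, limma adjusted p = 0.000138). With 0.1 added in place of 1, Steap3 differed more (-3.57) than Tfrc (3.07). Of the 4 genes called lower, Blvrb lost its call under each of 4 other scalings of the samples. It also lost the call without placode sample 1 (-0.23), placode sample 2 (-0.22) or SMG sample 1 (-0.17).

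Of 7 listed genes of hemoglobin assembly and gas transport, 6 were found and 4 were tested, with 2 lower, 2 higher and a median of -0.54 (-0.91 when 0.01 was added to FPKM). Slc4a1, which encodes band 3, the anion exchanger of the red cell membrane, was listed at 0 in the placodes and stood at 5.31 and 5.22 in the SMG samples (limma adjusted p = 3.21e-06). The ammonium channel gene Rhag was listed at 0 in the placodes and at 0.167 and 0.328 in the SMG samples, and the carbonic anhydrase gene Car1 was listed at 0 in all 4. Ahsp, the α-globin chaperone gene, was not analysed here.

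Of 12 genes of the red cell membrane skeleton and surface, 4 were tested, with 2 lower and 2 higher and a median of 0.19 (0.03 when 0.1 was added). Add2, which encodes a spectrin-binding adducin found also in brain, measured 33.2 and 32.4 FPKM in the placodes and 3.43 and 3.498 in the SMGs (2.92, limma adjusted p = 4.37e-07).

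Of the listed erythroid regulators, Gata1, Klf1, Gfi1b and Nfe2 stayed under 1 FPKM in both SMG samples. Gata1, the defining erythroid factor, was listed at 0 in the placodes and in SMG sample 2 and stood at 0.279 in SMG sample 1. Klf1, the activator of adult β-globin, measured 0.198 and 0.144 FPKM in the placodes and 0.480 and 0.637 in the SMGs. Gfi1b was listed at 0 in the placodes and at 0.164 and 0 in the SMG samples. Nfe2 measured 0.395 and 0.366 FPKM in the placodes and 0.719 and 0.734 in the SMGs. Of the 10 genes listed as erythroid activators, 6 were tested, with 2 lower, 2 higher and 2 not called, and a median of -0.03. Zfpm1, which encodes the Gata1 partner FOG1, was among the higher genes, with 10.6 and 11.6 FPKM in the placodes and 6.06 and 6.11 in the SMGs (0.77, limma adjusted p = 0.000204). Tal1, a partner of Gata1 in erythroid complexes, was lower by about as much, with 0.836 and 0.980 FPKM in the placodes and 2.20 and 2.26 in the SMGs (-0.76, limma adjusted p = 0.000953). With 0.1 added in place of 1, Tal1 differed more (-1.21) than Zfpm1 (0.86). The number lower was 1 without placode sample 1.

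Of 12 listed regulators of globin switching and silencing, 11 were tested, with 5 lower, 5 higher and 1 not called, and a median of -0.17. Bcl11a, which silences embryonic and fetal globin in definitive red cells and also acts in neurons, was among those higher and measured 19.1 and 19.6 FPKM in the placodes and 10.9 and 10.1 in the SMGs (0.83, standard error 0.07, limma adjusted p = 6.83e-05). Sox6, a partner of Bcl11a that silences Hbb-y in the mouse, measured 14.2 and 14.7 FPKM in the placodes and 1.49 and 1.37 in the SMGs (2.67, standard error 0.09, limma adjusted p = 1.51e-06). The genes lower in the placodes were Myb, Zbtb7a, Dnmt1, Mbd2 and Nr2c1. Of these, Myb, a factor of definitive progenitors, differed most, with 0.752 and 1.04 FPKM in the placodes and 2.66 and 2.63 in the SMGs (-0.95, limma adjusted p = 0.000557, or -1.48 when 0.1 was added). The number lower was 3 without placode sample 1, without SMG sample 1 or without SMG sample 2.

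**Figure D5:**
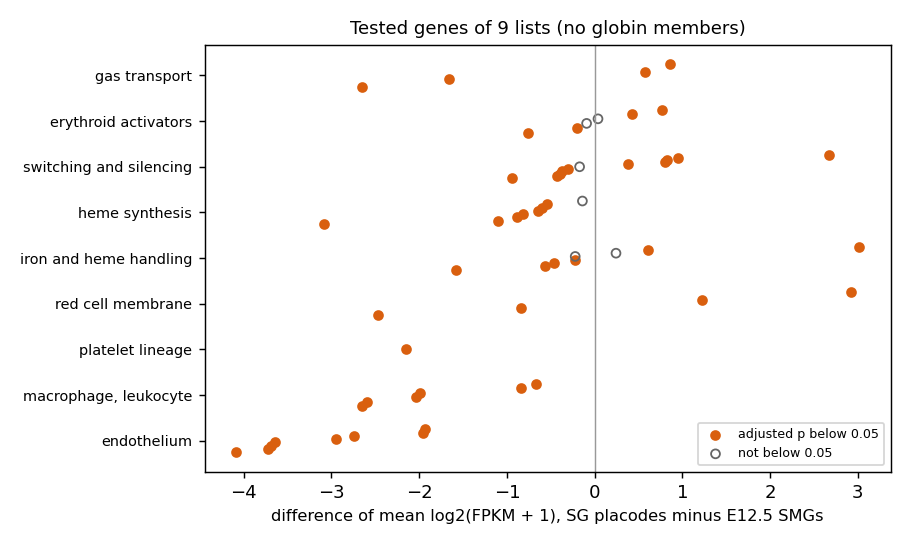
Difference of mean log2(FPKM + 1), placodes minus E12.5 SMGs (horizontal axis), of each tested gene in 9 lists (rows), none of them a globin member. Filled orange points passed the test and open points did not. The endothelial, macrophage and leukocyte points all lie below 0, and the erythroid activators and switching genes lie on both sides.

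All tested markers of other blood and vessel cells were lower in the placodes. Of all tested features, 40.4% were called lower and 35.7% higher. Of 8 macrophage and leukocyte markers, 6 were tested and all 6 were lower in the placodes. As 3 of the 6 were at 0 in both placode samples, the median log2 difference follows the constant added to FPKM: it was -2.02 with 1, -4.97 with 0.1 and -7.96 with 0.01. Of the 8, 4 were at 0 in both placode samples, and the summed FPKM of the list was 2.498 and 2.95 in the placodes and 26.4 and 22.9 in the SMGs. C1qa, a complement gene of macrophages, was listed at 0 in the placodes and at 5.49 and 5.09 in the SMG samples (limma adjusted p = 3.55e-06). All 8 endothelial markers were lower, with a median of -3.30 (-5.03 when 0.01 was added) and a summed FPKM of 17.6 and 15.8 in the placodes against 163 and 172, and 0 of them were listed at 0 in both placode samples. Pecam1, an adhesion gene of endothelium, was at 0.941 and 0.807 against 30.6 and 31.2 (-4.09, limma adjusted p = 3.3e-07). Of 8 platelet markers, Pf4 alone was tested, listed at 0 in the placodes and at 3.96 and 2.97 in the SMG samples (limma adjusted p = 2.65e-05). Of the 8 platelet markers, 3 were at 0 in both placode samples, and the list summed to 0.935 and 0.993 in the placodes and 6.18 and 6.58 in the SMGs. The part of blood and vessel content in the level of the globin genes was not tested.

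Markers of the labelled tissue were present in the SMGs, where all 8 listed salivary epithelial markers had an FPKM of at least 1 in both samples. In the placodes 4 of the 8 did, and Krt5, Krt14 and Krt15 were listed at 0 in both samples. Sox9, a factor of early salivary epithelium, went the other way, with 42.1 and 43.0 FPKM in the placodes and 9.31 and 7.66 in the SMGs (2.20, limma adjusted p = 3.66e-06), as did the duct keratin gene Krt19, with 14.7 and 15.8 against 9.78 and 6.53 (0.85, limma adjusted p = 0.00363). The call of Krt19 was lost without placode sample 1 (0.90) or placode sample 2 (0.80). The list summed to 60.2 and 63.1 in the placodes and to 575 and 554 in the SMGs, and 6 of its genes were lower and 2 higher in the placodes.

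The genes closest to the mean profile of the members included 2 of the salivary epithelial markers, Pitx1 and Krt15. Over the 4 samples and 12707 candidate genes, the smallest Euclidean distances of log2(FPKM + 1) from the members' mean were those of Pitx1 (0.801), Grb10 (1.17), Barx1 (1.24), Krt15 (1.38) and Actc1 (2.68). The members' own distances ranged from 0.350 for Hbb-bt to 4.42 for Hbb-bh1. Pitx1, a homeobox gene of oral ectoderm, measured 0.539 and 0.429 FPKM in the placodes and 245 and 253 in the SMGs. Grb10, an imprinted adaptor gene, was at 0.698 and 0.698 against 300.0 and 316, and Barx1, a homeobox gene of oral mesenchyme, was at 0.862 and 0.807 against 219 and 229. With 4 samples in 2 groups, such likeness reflects little more than a similar level in each group.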

How the data were processed

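RNA-seq values of 2 PSC-derived SG placode samples and 2 E12.5 SMG samples were used, grouped by the sample labels. The authors mapped paired-end reads with HISAT2 and deposited FPKM per gene. The submitters' processing notes name the builds GRCm38 and GRCh38 without a role. Not given in the sources used here are the HISAT2 version, the annotation, the strandedness and the tool behind the FPKM values. FPKM times transcript length of single-exon genes showed repeated steps, but only 16.2 to 20.7% of low values lay on them (within 0.5%), so whole reads were not recovered and no intervals or floors are given.

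Members were matched by symbol, and coordinates, transcripts and coding sequences were taken from GENCODE M21 (GRCm38) and promoters from RefSeq (GRCm38.p6), read with Biopython 1.88 in Python 3.11.15. The longest protein-coding transcript of each gene was used. Coding sequences were aligned in pairs, and 50-base and 100-base windows were searched in all GENCODE transcripts on both strands.

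Features with a mean FPKM of at least 1 were tested on log2(FPKM + 1) with limma 3.58.1 in R 4.3.3 (lmFit, eBayes with trend), two-sided, with Benjamini-Hochberg adjustment over 13193 features and a threshold of 0.05. The 7 members are among the features tested, but their tests are not reported. With 2 samples a group, the smallest p of an exact permutation test is 0.333. No fold is given for a single gene against a group listed at 0, and differences of genes near 0 depend on the constant added to FPKM. The procedure was tested on simulated data. Alternatives changed the pseudocount, the minimum FPKM, the scaling, the variance model, the replicate block and the samples included.

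The members and gene lists were chosen with earlier results of these data known. Named genes are the members, other globin genes, the most changed gene called in each list, Ahsp, Alas2, Gata1, Klf1, Bcl11a and Slc4a1, genes of the erythroid lists listed at 0 in both placode samples, genes within 200 kb of a cluster, and the 5 genes nearest to the members' mean profile. Some genes that this rule names are not reported here. Uros, Blvrb, Ldb1, Tal1, Nfe2, Myb, Steap3, Zbtb7a, Dnmt1, Mbd2, Nr2c1, Sox9, Krt19, Krt5, Krt14, Krt15, Bpgm and Car2 were named after their values were seen.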

Additional observations from a re-analysis of the deposited data

How the results depend on the processing

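The embryonic share of β-like FPKM lay between 70.8 and 73.6% with FPKM multiplied by transcript length or either SMG sample left out, and was 83.9% with Hbb-bs and Hbb-bt as 1 gene. With that multiplication, the embryonic share of α-like RNA was 9.19% and the α-like to β-like ratio 0.690. With Hba-a1 and Hba-a2 as 1 gene, they were 14.3% and 0.355, and with both adult pairs as 1 gene each the ratio was 0.412. The alternatives with Hbb-bs and Hbb-bt as 1 gene were chosen after seeing the data. Without mitochondrial genes in the sum, globin genes held 0.887%.

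The numbers of list genes lower in the placodes moved mostly with the minimum FPKM, which changes how many genes are tested. At a mean FPKM of at least 5, they were 0 for gas transport, 1 for erythroid activators, 2 for iron and heme handling, 1 for the red cell membrane, 0 for platelet markers and 0 for macrophage and leukocyte markers. With no minimum, they were 4 for erythroid activators, 7 for the red cell membrane and 3 for platelet markers. Under TPM scaling, 1 erythroid activator was lower, and Ldb1 was the one that lost its call. With each sample left out in turn, where the lone sample of a group is assumed to vary like the other group, erythroid activators ranged from 1 to 2 and switching regulators from 3 to 4, against 5 with all samples. The uncalled genes near the α-globin cluster changed sign: Nprl3 to 0.012 under TPM, 0.011 under median-ratio scaling, 0.0030 under quantile normalization and 0.0017 under TPM without the globins, and Ubtd2 to -0.016 under quantile normalization. With samples left out, the log2 difference ranged from -0.17 to 0.090 for Nprl3, from -0.029 to 0.25 for Snrnp25 and from -0.0093 to 0.13 for Ubtd2. Alternatives were run for 25 single genes of the lists and clusters, not for Bpgm, Car2 or the genes nearest to the members' profile. Of their 343 values, 318 kept their direction and side of the threshold, 16 lost the call (Mpg, Blvrb, Ldb1 and Krt19), 1 gained it and 8 changed sign.

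The replicate numbers were not shown to pair the samples: deviations of samples with the same number correlated with r = -0.03 across 13193 features. With the replicate number as a block, 10043 features were called (5341 lower and 4702 higher), against 10049 without it, and no list count moved. With 2 samples per group and unknown depth, a value of 0 does not show that a gene is not expressed.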
